A study of Mus musculus with 7 samples.

Results

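MiR-146a, miR-146b and miR-155 are the microRNAs most often linked to inflammatory signalling, and their array entries were followed through 3 states of mouse sarcoma cells. Every entry of the array named for 1 of these hairpins, from either arm, was taken, which gave 4 of the 696 mouse miRNA entries, namely miR-146a-5p, miR-146b-5p, miR-146b-3p and miR-155-5p. All cells were p53-null and came from soft tissue sarcomas of p53 knockout mice, and miRNA was measured with 1-colour Agilent arrays, 7 in all. The control primary cells (n = 2) carried a Non-target shRNA and the Rb-depleted primary cells (n = 2) carried an shRNA against Rb (shRb1), the transcript of the retinoblastoma tumor suppressor. The Rb-depleted secondary cells (n = 3) were grown in 2D culture from spheres that Rb-depleted cells had formed without serum. A single Rb shRNA was used, no secondary cells of the control were among these arrays, and the number of tumours or mice behind the cultures is not stated. Per the design text the arrays were independent experiments, yet nothing says which replicates were separate cultures, so the p-values measure the spread between these arrays, which may be technical.

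A mature miRNA guides the silencing complex to messenger RNAs that pair with its seed, bases 2 to 8 from the 5′ end. MiR-146a and miR-146b are known to be induced by NF-κB downstream of Toll-like and cytokine receptors, and to act back on that pathway through the adaptor kinase Irak1 and the ubiquitin ligase Traf6. MiR-155 is made from a non-coding transcript that activated lymphocytes and macrophages induce, and it represses Socs1, a brake on cytokine signalling, among other messages.

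The mature sequences are shown because the miR-146 pair shares a seed and differs at few bases, which bears on how its probes are read. Probe sequences were not used here, and cross-hybridization between the miR-146a-5p and miR-146b-5p probes, in secondary cells among others, was not tested. They are RefSeq sequences (GRCm38), matched by name, with the seed in capitals.
miR-146a-5p: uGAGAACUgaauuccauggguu
miR-146b-5p: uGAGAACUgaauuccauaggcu
miR-155-5p: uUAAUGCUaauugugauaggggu
miR-146b-3p: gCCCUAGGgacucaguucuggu

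MiR-146a-5p and miR-146b-5p were identical at 20 of 22 bases. They differed by G18A and U21C, where positions count from the 5′ end, the miR-146a-5p base stands first and the miR-146b-5p base last. Below, the differing bases are in capitals.
miR-146a-5p: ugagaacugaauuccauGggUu
miR-146b-5p: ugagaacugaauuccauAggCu
The seed GAGAACU occurred in no other of the 1679 mature mouse miRNAs in the RefSeq table, and the seeds of miR-155-5p and miR-146b-3p were shared with none. RefSeq sequences matched 542 of the 696 array entries, so seed sharing with the remaining entries was not examined.

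The hairpins lie on different chromosomes of NCBIM37, the build of the array design. The miR-146a hairpin (Mir146) is at chr11:43187899-43187963 on the minus strand and overlaps no other GENCODE gene, with the nearest coding gene, Pttg1, 45789 bases away. The miR-146b hairpin (Mir146b) is at chr19:46417252-46417360 on the plus strand, in an intron of Tmem180, a coding gene on the same strand. The miR-155 hairpin (Mir155) is at chr16:84714385-84714449 on the plus strand, within an exon of the lincRNA gene annotated at chr16:84713268-84715487.

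The scanner gave each miRNA a total gene signal in intensity units, the sum of those of its probe signals that exceeded 3 times their error. A miRNA was called detected where at least 1 probe signal did so. Undetected miRNAs were given a signal of 0.1. Arrays detected 258 to 287 of the 696 miRNAs. Both control arrays, both Rb-depleted primary arrays and secondary replicate 1 were on 1 slide, and secondary replicates 2 and 3 were on another. The cells carried the miRNAs of mesenchyme, with 7 of 7 such markers detected on all 7 arrays, whereas 0 of 7 epithelial markers were detected on any. Among 6 markers of blood cells, 5 were detected on no array, including miR-142-3p, miR-142-5p, miR-150-5p and miR-223-3p.

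Levels of the 4 entries differed widely. MiR-155-5p was the brightest, with a total gene signal of 278 and 331 on the control arrays, 381 and 358 on the Rb-depleted primary arrays, and 541, 317 and 528 on the secondary arrays. MiR-146a-5p was dimmer and was detected on all 7 arrays, at 10.8 and 14.0 in control cells, 13.4 and 121 on the Rb-depleted primary arrays, and 29.3, 25.1 and 55.4 in secondary cells. MiR-146b-5p was undetected on both control arrays, and stood at 11.3 and 12.8 for Rb-depleted primary cells and at 56.2, 28.7 and 146.4 in secondary cells. MiR-146b-3p, the other arm of the miR-146b hairpin, was undetected on all 7 arrays. MiR-146a-5p and miR-146b-5p are each read by 2 probes. Both probes count in the values of 121, 55.4 and 146.4, and 1 probe alone in their other detected values. Array brightness depends on each probe, so these levels compare samples for 1 miRNA and do not rank the miRNAs by abundance.

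**Figure D1:**
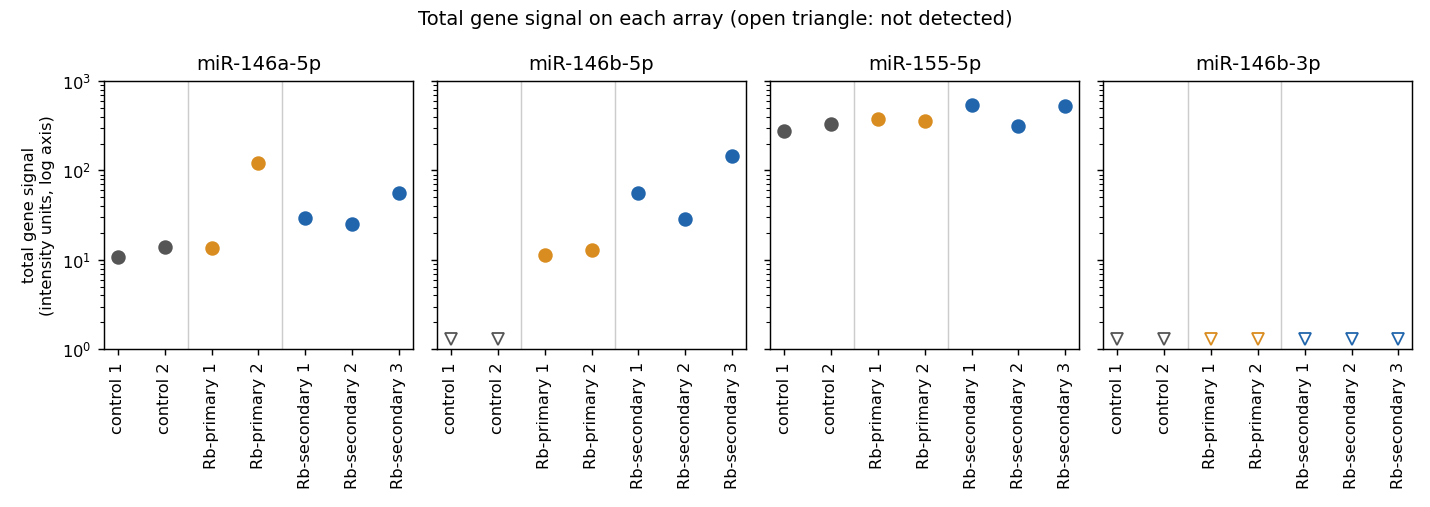
Total gene signal of the 4 entries (intensity units, log axis) on each of the 7 arrays, where control, Rb-primary and Rb-secondary stand for control primary, Rb-depleted primary and Rb-depleted secondary cells, each point is 1 array and open triangles mark arrays on which the miRNA was not detected. MiR-146b-5p is detected on the 5 Rb-depleted arrays alone, and 1 of the 2 Rb-depleted primary arrays stands apart for miR-146a-5p, at 121.

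MiR-146b-5p read higher on every array of Rb-depleted secondary cells than on either control array. Whether the difference passed the test depended on each control array and, on mean spot signal, on the filter on detection. It was undetected on the control arrays and detected on all 5 arrays of Rb-depleted cells, a pattern that 1 of the 696 miRNAs (0.144%) had. With undetected signals at a floor of 1 and quantile normalization, its log2 level was 0 on both control arrays, 3.32 and 3.86 on the Rb-depleted primary arrays, and 5.98, 5.11 and 7.34 in secondary cells. The 3 groups did not overlap, in the order control, Rb-depleted primary and secondary, and the share of miRNAs with that order was not counted. Among the 312 miRNAs detected on at least 1 array, secondary and control cells differed in miR-146b-5p at an adjusted p of 0.00560 by limma with Benjamini-Hochberg adjustment. Both control values were the floor, with no spread between them, and miR-146b-5p entered the 312 only through the arrays of Rb-depleted cells, so this p is a result under that floor and filter. With a floor of 5 the adjusted p was 0.0204, and over all 696 miRNAs it was 0.0307 by limma. In that comparison 7.69% of the 312 miRNAs passed the threshold of 0.05 in the upward direction, and 25.3% had secondary values all above the control values. Without control replicate 1 the adjusted p was 0.0588 and without control replicate 2 it was 0.0537. For Rb-depleted primary against control cells it was 0.0951 by limma, above the threshold, and the upward background was 0.321%.

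The control arrays were not blank for miR-146b-5p. The miRNA is read by 2 probes of 10 spots each, and on the brighter probe the mean spot signal was 11.8 ± 1.91 and 14.0 ± 3.44 (SD over 10 spots) on the control arrays. The 182 negative control spots of the same arrays had medians of 2.55 and 3.25. The signal of that probe was 2.65 and 2.89 times its error on the control arrays, just under the limit of 3, and at least 4.08 times its error on the Rb-depleted arrays. The step from undetected to detected between control and Rb-depleted primary cells therefore matched a brighter-probe signal of 7.72 and 9.24 against 11.3 and 12.8, a ratio of means of 1.42. In secondary cells the brighter probe read 56.2, 28.7 and 125.8, with a ratio of means of 8.29 to control cells and of 5.84 to Rb-depleted primary cells. The dimmer probe passed the limit on secondary replicate 3 alone, with a signal of 20.6.

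The mean of all spots of a miRNA needs no detection call, so it was also normalized and tested, first over the 312 miRNAs detected on at least 1 array. On that scale miR-146b-5p was higher in secondary than in control cells by 3.37 log2 units (SE 0.60, 95% interval 1.89 to 4.86, adjusted p = 0.0199 by limma, secondary above control on 3 of 3 arrays, upward background 10.9%). Secondary cells were above Rb-depleted primary cells by 2.38 (SE 0.60, adjusted p = 0.0428 by limma), while the difference between Rb-depleted primary and control cells was 0.99 (SE 0.65, interval -0.64 to 2.62, adjusted p = 0.392 by limma). On total gene signal the same difference between secondary and Rb-depleted primary cells was 2.55 (SE 0.66, adjusted p = 0.0646 by limma), which missed the threshold. The mean spot signal of all 696 miRNAs, with no filter on detection, left the difference between secondary and control cells at 3.37 but gave an adjusted p of 0.0847 by limma, above the threshold. Between secondary and Rb-depleted primary cells the difference without that filter was 2.38, with an adjusted p of 0.1625 by limma, also above the threshold. Between secondary and Rb-depleted primary cells the upward background over the 312 miRNAs was 6.73% on total gene signal and 11.2% on mean spot signal.

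**Figure D2:**
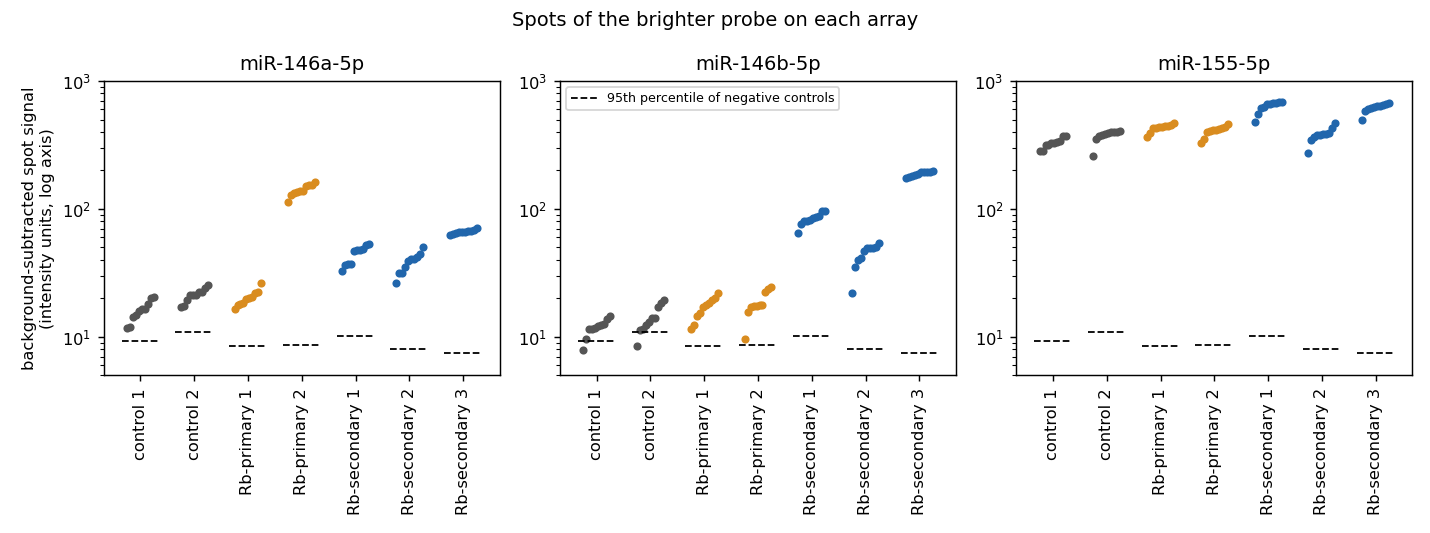
Background-subtracted signal of the 10 spots of the brighter probe (intensity units, log axis) on each array, with each point 1 spot and the dashed line the 95th percentile of that array's negative control spots. Of the control spots of miR-146b-5p, at 7.89 to 19.5, 18 of 20 lie above that line, and those of secondary cells at 21.9 to 197.

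MiR-146a-5p gave no difference between groups that passed the test over 7 arrays, and its Rb-depleted primary arrays stood far apart. The deposited log2 values were 2.27 and 3.38 in control cells, 3.68 and 7.10 on the Rb-depleted primary arrays, and 5.04, 5.01 and 6.04 in secondary cells. All 3 secondary arrays were above both control arrays, which held for 29.8% of the 252 miRNAs of the deposited table in the upward direction. The Rb-depleted primary arrays straddled the secondary arrays, and the lower of them, at 3.68, was near the higher control array, at 3.38, and below it in total gene signal.

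In the fit of the 252 miRNAs, secondary cells differed from control cells in miR-146a-5p by 2.54 log2 units (SE 1.04, interval -0.05 to 5.13, adjusted p = 0.142 by limma). That difference was 1.94 with 75th percentile scaling, 2.00 on mean spot signal and 1.49 without normalization between arrays, where it stood 1.95 above the shifted median of all 252 miRNAs. Rb-depleted primary cells differed from control cells by 2.56 (SE 1.14, interval -0.28 to 5.40, adjusted p = 0.232 by limma). Secondary and Rb-depleted primary cells differed by -0.02 (SE 1.04, interval -2.62 to 2.57). These intervals reach from no difference to one of over 5 log2 units against control cells. The share of the 252 miRNAs that passed in the upward direction was 13.1% for secondary against control cells, 0.397% for Rb-depleted primary against control cells and 12.7% for secondary against Rb-depleted primary cells.

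Between the Rb-depleted primary arrays miR-146a-5p differed by 3.42 log2 units, the widest replicate difference of the 252 miRNAs in that group, where the median was 0.15. In total gene signal the ratio was 9.03, a value in which the dimmer probe counts on replicate 2 alone. On the brighter probe the ratio was 6.93. Both probes carried the difference, with signals of 13.4 and 93.2 on the brighter probe and of 2.59 and 28.2 on the dimmer. All 10 spots of the brighter probe lay between 114 and 162 on replicate 2, and between 16.4 and 26.1 on replicate 1. No spot of replicate 1 reached the spots of replicate 2. On the same arrays the brighter miR-146b-5p probe read 11.3 and 12.8, and miR-155-5p had a total gene signal of 381 and 358. Between these arrays the ratio of replicate 2 to replicate 1 was 1.13 on the brighter probe of miR-146b-5p, which differs from miR-146a-5p by 2 bases.

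Without Rb-depleted primary replicate 2 the difference of miR-146a-5p between Rb-depleted primary and control cells was 0.85 (adjusted p = 0.647 by limma), and without replicate 1 it was 4.27 (adjusted p = 0.0326 by limma). In both cases a lone array is assumed to vary like the other groups. The difference between secondary and control cells stayed at 2.54 when either of these arrays was left out, and its adjusted p was then 0.0410 by limma. Among the blood cell markers, miR-451a, abundant in red blood cells, was detected on Rb-depleted primary replicate 2 alone, at 8.81. The summed signal of the 6 markers was 0 on the other 6 arrays, and miR-142-3p, miR-142-5p and miR-223-3p, which define leukocytes, were undetected on that array too. So was miR-144-3p, which is made from the same red blood cell cluster as miR-451a. The part of red blood cells in the miR-146a-5p signal was not tested.

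**Figure D3:**
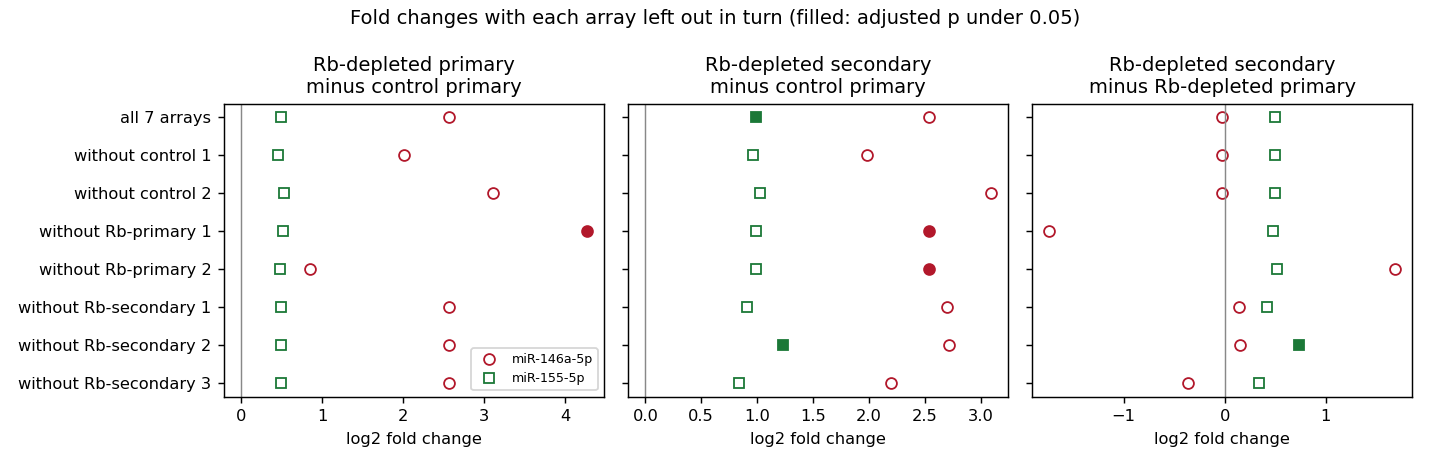
Log2 fold changes of miR-146a-5p (circles) and miR-155-5p (squares) in the deposited table for each pair of groups, with all 7 arrays and with each array left out in turn, where filled symbols have an adjusted p under 0.05 by limma. The miR-146a-5p difference between Rb-depleted primary and control cells runs from 0.85 to 4.27, while that of miR-155-5p runs from 0.46 to 0.52.

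MiR-155-5p was higher in secondary than in control cells in the deposited table. Its log2 values were 8.004 and 8.067 in control cells, 8.51 and 8.55 on the Rb-depleted primary arrays, and 9.19, 8.55 and 9.34 in secondary cells. Control arrays were below every Rb-depleted array, and secondary replicate 2 stood level with Rb-depleted primary replicate 2. The difference between secondary and control cells was 0.99 log2 units, or 1.99-fold (SE 0.24, interval 0.39 to 1.59, adjusted p = 0.0398 by limma, 3 of 3 arrays above control). In that comparison 13.1% of the 252 miRNAs passed in the upward direction, and 29.8% had secondary values all above the control values. Rb-depleted primary cells were 0.49 above control cells (SE 0.26, adjusted p = 0.297 by limma), and secondary cells were 0.50 above Rb-depleted primary cells (SE 0.24, adjusted p = 0.190 by limma). Both of these missed the threshold. Upward non-overlap of Rb-depleted primary and control arrays, as seen for miR-155-5p and miR-146a-5p, was found in 31.0% of the 252 miRNAs.

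The miR-155-5p call in secondary cells depended on the scaling and on single arrays. Without normalization between arrays the log2 difference from control cells was 0.56 (adjusted p = 0.0898 by limma), and the groups overlapped, since the signal of 317 on secondary replicate 2 was below the 331 of a control array. The median of the 252 miRNAs was then shifted by -0.46, so miR-155-5p stood 1.03 above that median. With slide as a term in the fit the difference was 1.16 (adjusted p = 0.125 by limma), and on the slide of the control arrays alone, which holds 1 secondary array, it was 1.16 (adjusted p = 0.0200 by limma, with that lone array assumed to vary like the other groups). Without secondary replicate 2 the difference was 1.23 (adjusted p = 0.00754 by limma), whereas leaving out any 1 of the other 6 arrays gave adjusted p-values from 0.0640 to 0.191 by limma and ended the call. Both miR-155-5p probes were in the same order, with ratios of secondary to control means of 1.56 on the brighter probe and 1.35 on the dimmer.

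**Figure D4:**
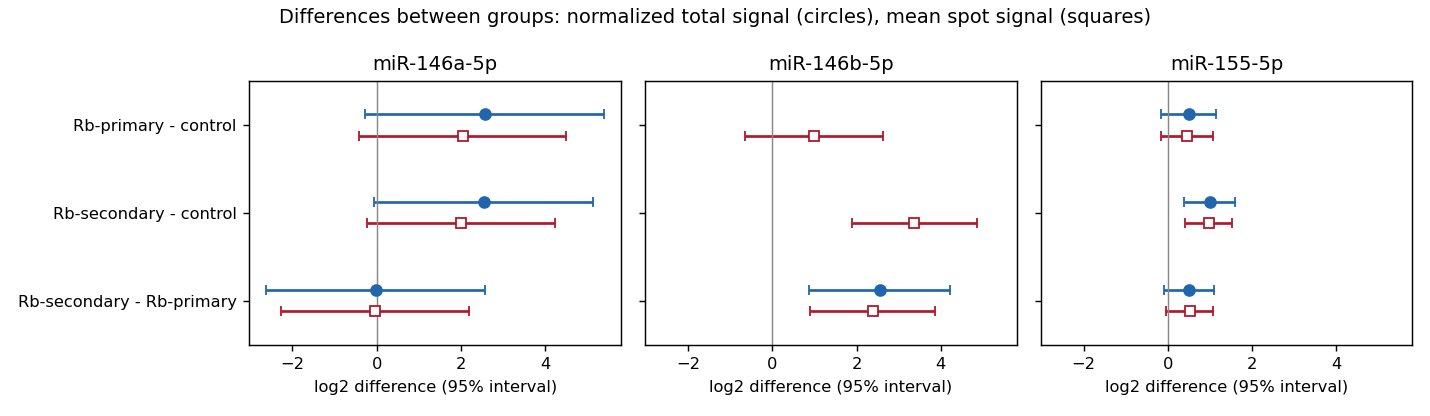
Log2 differences between groups with 95% intervals from limma, for normalized total gene signal (circles; the deposited table for miR-146a-5p and miR-155-5p) and normalized mean spot signal (squares). Circles are left out for miR-146b-5p against control cells, where it was undetected; its squares stand at 0.99, 3.37 and 2.38 from top to bottom, and those of miR-146a-5p have the widest intervals.

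Over the 3 groups, the moderated F-test of limma gave an adjusted p of 0.0145 for miR-146b-5p, 0.0644 for miR-155-5p and 0.179 for miR-146a-5p. The first is a result under the floor, which both control values were, and under a filter that miR-146b-5p passed only through Rb-depleted arrays. On mean spot signal with no filter on detection, its adjusted p was 0.114 by the same F-test, above the threshold of 0.1. At the threshold of 0.1 used for this test, 43.3% of the 252 miRNAs of the deposited table and 31.4% of the 312 detected miRNAs passed, so 2 of the 3 detected members passing is to be read against a large background. Each detected member was highest, on average, in secondary cells, except miR-146a-5p, whose mean log2 value was 5.37 in secondary and 5.39 in Rb-depleted primary cells.

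A difference taken within an array does not move with a factor that scales the whole array, though quantile normalization, which acts by rank, can change it. MiR-155-5p exceeded miR-146a-5p by 5.73 and 4.69 log2 units in control cells, by 4.83 and 1.45 on the Rb-depleted primary arrays, and by 4.15, 3.54 and 3.30 in secondary cells. The gap was narrower on each secondary array than on either control array, with a mean difference of -1.55 (p = 0.10, exact two-sided permutation test), and 0.10 is the smallest p that 3 against 2 arrays allow. On control replicate 1 the gap was 5.73 in the deposited values, 5.26 with undetected miRNAs at a floor of 1, where miR-146a-5p was 2.75 in place of 2.27, and 4.69 without normalization. In unnormalized signal the gaps were 4.69 and 4.57 in control cells and 4.21, 3.66 and 3.25 in secondary cells (mean difference -0.92, p = 0.20, exact two-sided permutation test). For Rb-depleted primary against control cells the mean difference was -2.07 (p = 0.667, exact two-sided permutation test, smallest possible 0.333).

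By the shape of their profile over the 7 arrays, measured as the root mean square (RMS) difference of log2 values after each miRNA's mean was subtracted, miR-155-5p was closest to miR-34c-5p (0.10), miR-34b-5p (0.15) and miR-27b-3p (0.17), where the median of the 252 miRNAs was 0.52. MiR-34b and miR-34c are known for their induction by p53, which these cells lack. MiR-34c-5p had log2 values of 6.40 and 6.55 in control cells, 6.79 and 7.02 on the Rb-depleted primary arrays, and 7.51, 7.15 and 7.78 in secondary cells. As for miR-155-5p, secondary replicate 2 was the lowest of the secondary arrays. The miRNAs closest to miR-146a-5p were let-7d-3p (0.84), miR-7a-1-3p (1.14) and miR-210-3p (1.15), so none followed it closely. For miR-146b-5p they were miR-455-3p (1.48), miR-378a-3p (1.78) and its own seed partner miR-146a-5p (1.86), against a median of 2.63 over 312 miRNAs.

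Other miRNAs tied to NF-κB or Toll-like receptor signalling were taken from a list of the hairpins let-7e, miR-9, miR-21a, miR-99b, miR-125a, miR-132, miR-147, miR-187, miR-212, miR-221, miR-222 and miR-301a. Of their 16 entries on the array 14 were detected, all in the deposited table. MiR-147-3p and miR-187-3p, both known from activated macrophages, were detected on no array. Between secondary and control cells 3 of the 14 rose and 0 fell by limma, with 0 lower at an unadjusted p under 0.05, and 11 did not pass. The median log2 difference was 0.03 over the list and 0.03 over all 252 miRNAs, of which 22.6% passed in either direction. MiR-132-3p, which is induced by CREB and by bacterial products, rose by 1.14 log2 units (SE 0.16, adjusted p = 0.0118 by limma). Its log2 values were 6.34 and 6.17 in control cells, 6.85 and 6.65 on the Rb-depleted primary arrays, and 7.15, 7.39 and 7.64 in secondary cells, with no overlap between groups. Upward non-overlap with control cells held for 29.8% of the 252 miRNAs in secondary cells and for 31.0% in Rb-depleted primary cells. The share with no overlap among all 3 groups was not counted. MiR-301a-3p, known to target the NF-κB repressing factor, rose by 0.39 (SE 0.09, adjusted p = 0.0368 by limma), and miR-125a-5p, known to target the NF-κB inhibitor Tnfaip3, by 0.29 (SE 0.07, adjusted p = 0.0402 by limma). Without normalization between arrays their differences were -0.09 and -0.24, both above the median of the 252 miRNAs, which was then shifted by -0.46. Each kept its call under 4 of the 10 alternative settings that do not leave out arrays in turn, whereas miR-132-3p kept its call under 8. Further large differences were those of miR-222-3p (-0.52, adjusted p = 0.185 by limma) and miR-125a-3p (-0.49, adjusted p = 0.183 by limma), neither of which passed.

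**Figure D5:**
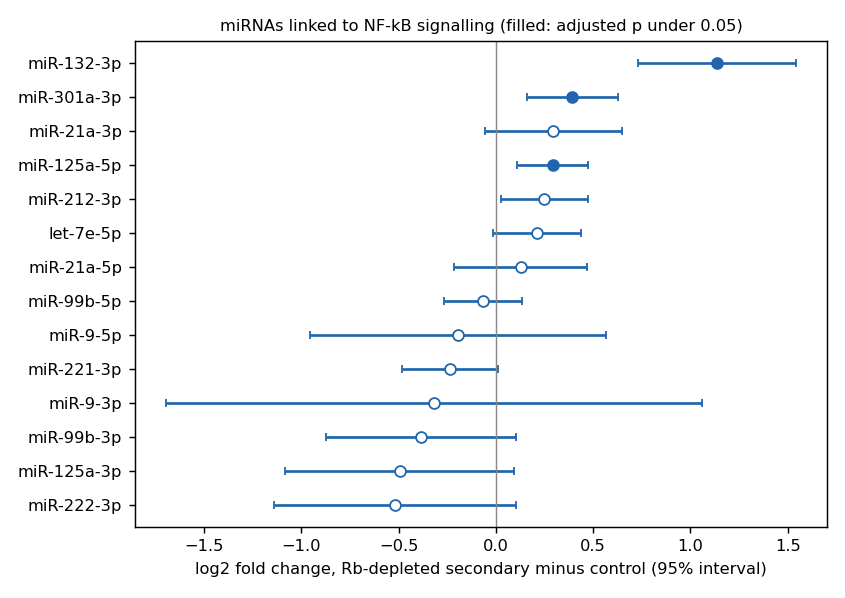
Log2 fold change between Rb-depleted secondary and control cells, with 95% intervals from limma, for the 14 detected miRNAs linked to NF-κB signalling, where filled points have an adjusted p under 0.05. MiR-132-3p stands highest at 1.14, and 7 of the 14 points are below 0.

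Between secondary and Rb-depleted primary cells, 1 of the 14 rose and 0 fell by limma, with 3 lower at an unadjusted p under 0.05, where 20.2% of the 252 miRNAs passed. It was miR-132-3p, at 0.64 (SE 0.16, adjusted p = 0.0465 by limma). The larger differences of miR-125a-3p (-0.71, adjusted p = 0.0808 by limma) and miR-99b-3p (-0.66, adjusted p = 0.0658 by limma) missed the threshold. In Rb-depleted primary against control cells 0 of the 14 passed by limma, 2 had an unadjusted p under 0.05, and 1.59% of the 252 miRNAs passed. The largest differences were those of miR-132-3p (0.49, adjusted p = 0.160 by limma), miR-21a-3p (0.32, adjusted p = 0.265 by limma) and miR-301a-3p (0.29, adjusted p = 0.155 by limma). The call of miR-132-3p against control cells was kept with 5 of the 7 arrays left out in turn and ended without either control array, with adjusted p-values from 0.0174 to 0.0834 by limma. The count of 3 in secondary against control cells, taken in either direction, became 0 without either control array, 1 without either Rb-depleted primary array or without secondary replicate 1 or 3, and 4 without secondary replicate 2.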

How the data were processed

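Total RNA was labelled with Cy3 and hybridized to Agilent Mouse miRNA 8x15K Rel. 15.0 arrays, 1 per sample. The authors deposited the scanner's output as intensity per spot, probe and miRNA, background-subtracted and not normalized between arrays (Feature Extraction 10.7.3.1 per the labels, 11.0.1.1 per the file headers). The authors also deposited log2 values of 252 mouse miRNAs and 11 control rows, quantile normalized in GeneSpring. The control rows were left out. Quantile normalization of the 718 features, with undetected miRNAs at 0.1, gave the deposited log2 values to within 3.24e-06. Of the 252 names, 57 equal the scanner's and 195 were matched by these values.

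MiR-146a-5p and miR-155-5p were tested on the deposited values, and miR-146b-5p on quantile normalized log2 total gene signal with a floor of 1 over the 312 miRNAs detected on at least 1 array. Limma 3.58.1 (R 4.3.3) fitted 3 group means to all 7 arrays, with Benjamini-Hochberg adjustment over all miRNAs fitted, thresholds of 0.05 for pairs of groups and 0.1 for the F-test. The fit was tested on simulated data. Files were read with Python 3.11.15. Precision is set by the number of arrays, since intensities carry no counts.

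The members and lists were chosen with earlier results of these data known. The text names all 4 members and, of the NF-κB list, those with an adjusted p under 0.05 and the 3 largest differences per comparison. It also names the 3 miRNAs closest in profile to each member, and miRNAs sharing a seed. Alternatives were the 75th percentile scaling, no normalization, other floors and filters, mean spot signal, trend and robust moderation, slide, replicate number and each array left out.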

Additional observations from a re-analysis of the deposited data

How the results depend on the processing

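The difference between secondary and control cells in miR-146b-5p kept its call under 10 of the 11 alternatives that do not leave out arrays in turn, with adjusted p-values from 0.00200 to 0.0480 by limma, and lost it on mean spot signal with no filter on detection (0.0847), where its F-test did too (0.114). One of the 11, the slide of the control arrays, holds 1 secondary array, which is assumed to vary like the other groups wherever that slide is named. Leaving out arrays in turn gave 0.00588 to 0.0588. For Rb-depleted primary against control cells it passed under none, with 0.0527 to 0.292 on leaving out arrays. Between secondary and Rb-depleted primary cells its log2 difference passed with mean spot signal over the 312 miRNAs (2.38) and with trend and robust moderation (2.55). It did not pass on mean spot signal with no filter on detection (2.38, adjusted p = 0.1625 by limma). On the slide of the control arrays, with 1 secondary array, the difference was 2.39. With arrays left out it ran from 1.95 to 3.07, passing without secondary replicate 2 (3.07, adjusted p = 0.0345 by limma). Its F-test ran from 0.0106 to 0.0797 with arrays left out.

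For miR-155-5p the difference between secondary and control cells ran from 0.83 to 1.23 with arrays left out. Its call was lost with 75th percentile scaling (1.02), no normalization (0.56), no filter (0.99) and slide as a term (1.16). Secondary and Rb-depleted primary cells differed past the threshold on the slide of the control arrays (0.66, with 1 secondary array) and without secondary replicate 2 (0.74, adjusted p = 0.0134), in a range of 0.34 to 0.74. Its F-test lost the call with no normalization (0.181), no filter (0.247), slide as a term (0.169) and classical one-way analysis of variance (0.141), and ran from 0.0128 to 0.201 with arrays left out. No result of miR-146a-5p changed its call or direction under the alternatives that do not leave out arrays in turn. With arrays left out its difference ran from 0.85 to 4.27 (Rb-depleted primary against control), from 1.98 to 3.09 (secondary against control), where it passed without either Rb-depleted primary array, and from -1.73 to 1.68 (secondary against Rb-depleted primary). That last difference turned positive without Rb-depleted primary replicate 2 (1.68) or secondary replicate 1 (0.14) or 2 (0.15). Its F-test ran from 0.0302 to 0.531, passing without either Rb-depleted primary array. The gap between miR-155-5p and miR-146a-5p within an array turned negative for secondary against Rb-depleted primary cells without Rb-depleted primary replicate 2 (-1.17), in a range of -1.17 to 2.21.

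Of the 14 NF-κB linked miRNAs, 6 were called between secondary and control cells with no normalization and 0 with slide as a term, in a range of 0 to 4 with arrays left out. Between secondary and Rb-depleted primary cells 2 were called with the 75th percentile scaling, no normalization, quantile normalization of the table's miRNAs alone or mean spot signal, and 0 with no filter or slide as a term, in a range of 0 to 1. The cause of these changes was not tested.

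Deviations of same-numbered arrays correlated at -0.14 to 0.13 over 252 miRNAs, with too few arrays per group to decide on pairing. With a replicate block, in which the only array numbered 3 adds nothing to a comparison, miR-155-5p in secondary against control cells was at 0.83 (adjusted p = 0.141) with an F-test at 0.180, and 0 NF-κB linked miRNAs were called in either comparison of secondary cells. MiR-146b-5p kept its call (adjusted p = 0.0474). The floor of 1, quantile normalization and mean spot signal of members in the table, the classical analysis of variance and unfiltered mean spot signal of miR-146b-5p, and some list alternatives were chosen after seeing the data. Secondary replicates 2 and 3 share a slide that holds no other group.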

Other observations

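The other miRNAs with wide differences between the Rb-depleted primary arrays, chosen after their values were seen, were lower on replicate 2, the array with the high miR-146a-5p signal. MiR-341-3p had deposited log2 values of 3.70 on replicate 1 and 2.01 on replicate 2, a difference of -1.69, with 4.59 and 4.67 in control cells. MiR-136-3p had 4.86 and 3.29 there, a difference of -1.57, with 5.42 and 5.49 in control cells. MiR-376b-5p differed by -1.30, from 3.51 to 2.20. These 3 follow miR-146a-5p, at 3.42, in the order of replicate differences in that group.

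MiR-126-3p, the miRNA of endothelial cells, was detected on the 4 arrays of primary cells, at 7.018 to 10.73 in total gene signal. It was detected on 0 of the 3 secondary arrays, while miR-126-5p was detected on no array. The lowest signal of any detected miRNA was 3.38 to 4.85 on the primary arrays, so the step to undetected gives no size of difference. The share of miRNAs with that pattern was not counted. Of 4 muscle markers, miR-206-3p alone was detected, at 46.3 and 47.0 in control cells, 43.8 and 27.8 on the Rb-depleted primary arrays, and 15.4, 36.4 and 12.9 in secondary cells. The part of these cell types in the values of miR-146a-5p, miR-146b-5p and miR-155-5p was not tested.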
